A study of Mus musculus with 13 samples.

Results

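The endothelial cell genes are 36 genes that mark the cells lining blood vessels. Members were taken by name from a fixed list of symbols, so no measured value enters the rule, although the list itself was drawn up with earlier results of these data known. A feature was found for 35 of the 36, 1 for each gene, among 22206 features tested in all. Egfl7, which encodes a secreted endothelial protein, had no feature in the annotation used here.

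The genes were measured in RNA pooled from 4T1 tumours on Clariom S mouse arrays, which give a log2 expression value for each transcript cluster. 4T1 is a mouse mammary carcinoma line of BALB/c origin, injected here into a single mammary fat pad. Tumours came from 3 lines: 4T1OE, made to overexpress NLRX1; 4T1OE-CTL, the control line for overexpression; and the untransduced parental line. Each line grew in Nlrx1-/- BALB/c hosts and in WT BALB/c hosts, with 2 arrays for each of the 6 groups. The knockout is the host's, so the injected cells and the vessels of a tumour could differ in Nlrx1 genotype. NLRX1 belongs to the NOD-like receptors and sits at mitochondria. The age of the mice, the number of tumours in a pool, the vector and whether a line was 1 clone were not given in the sources used here. Replicates were pools, so the spread given here is the spread between pools.

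The label of the Nlrx1-/- parental replicate 1 array passes on the array service's advice to exclude it, given from a principal component analysis. The fits therefore used 11 arrays, with a lone Nlrx1-/- parental array whose variation was taken to be that of the rest. Nlrx1 itself was between 9.31 and 10.67 on the 4 4T1OE arrays, between 5.99 and 7.06 on the 4 4T1OE-CTL arrays and between 6.14 and 7.13 on the 3 fitted parental arrays. Epcam, a surface protein of carcinoma cells, averaged 8.37 ± 0.54 on 4T1OE arrays, 8.09 ± 1.36 on 4T1OE-CTL arrays and 14.13 ± 1.00 on parental arrays (log2, SD, n = 4, 4 and 3). The standard deviation of all values within an array was 3.09 to 3.12 on the 4T1OE arrays, 2.78 to 3.07 on the 4T1OE-CTL arrays, 2.89 to 3.07 on the 3 fitted parental arrays and 2.53 on the array left out. Nlrx1-/- 4T1OE replicate 1 and Nlrx1-/- 4T1OE-CTL replicate 1 stood apart in general leukocyte genes, whose deviation from each gene's own median across fitted arrays had a median of 1.90 and 1.86 log2 units there, and of between -1.32 and 0.26 on the other fitted arrays. Glycam1, a gene of the high endothelial venules of lymph nodes, read 12.75 and 12.93 there and 3.71 to 5.55 on the other fitted arrays. Ccl21a, listed here for lymphatic endothelium, read 12.32 and 12.52 there and 5.56 to 6.99 on the others. The array left out read 13.16 and 12.10 for these genes. Other genes of the lymphatic and venule lists overlapped between the arrays. The bearing of the leukocyte, lymphatic and venule genes on the endothelial values was not tested.

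Blood vessel endothelium is held together by VE-cadherin (Cdh5) at cell junctions and keeps its identity through transcription factors of the ETS, SOX and GATA families, among them Erg, Fli1, Sox17, Sox18 and Gata2. When a tumour recruits vessels, tip cells at the front of a sprout express the Notch ligand Dll4, the peptide hormone apelin (Apln) and the proteoglycan endocan (Esm1), while inflamed vessels display selectins and immunoglobulin adhesion molecules that capture leukocytes. Several of these genes are not exclusive to endothelium: Selp is also made by megakaryocytes, Tal1, Gata2, Fli1, S1pr1, Icam2 and Cd34 by blood cells, Vcam1 by stromal cells and macrophages, and Icam1 by many activated cells. In a bulk tumour sample, fewer endothelial cells and less RNA per endothelial cell cannot be told apart.

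Promoters are shown for Dll4, Selp and Icam1, which passed the test between lines below and had a promoter in the table. Each is the 250 bases before the gene's start, from RefSeq on build GRCm38.p6, 5′ to 3′ on the strand of the gene. A window was on hand for 17 of the 35 measured genes, and Cdh5, Plvap and Ptprb were not among them. Capitals mark exact matches on either strand to 4 motifs, searched from 250 bases before to 50 bases after the start. They were the core GGAAGT bound by ETS factors, the motif AGATAA bound by GATA factors, TGANTCA, and the NF-kB consensus GGGRNNYYCC. R is A or G, Y is C or T, and N is any base. TGANTCA is a loose form of the AP-1 motif, and sites that depart from a motif at any base were not counted.
Dll4, chr2:119325534-119325783, plus strand: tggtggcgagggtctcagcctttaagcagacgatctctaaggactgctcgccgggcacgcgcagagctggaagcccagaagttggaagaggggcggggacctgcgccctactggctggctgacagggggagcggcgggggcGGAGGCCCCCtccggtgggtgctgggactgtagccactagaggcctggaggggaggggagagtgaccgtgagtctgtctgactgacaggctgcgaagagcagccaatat
Selp, chr1:164115014-164115263, plus strand: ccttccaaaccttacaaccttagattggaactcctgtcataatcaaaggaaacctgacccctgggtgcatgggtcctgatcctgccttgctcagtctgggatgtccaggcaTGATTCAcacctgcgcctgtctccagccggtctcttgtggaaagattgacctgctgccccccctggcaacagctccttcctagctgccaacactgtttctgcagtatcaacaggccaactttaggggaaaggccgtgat
Icam1, chr9:21015690-21015939, plus strand: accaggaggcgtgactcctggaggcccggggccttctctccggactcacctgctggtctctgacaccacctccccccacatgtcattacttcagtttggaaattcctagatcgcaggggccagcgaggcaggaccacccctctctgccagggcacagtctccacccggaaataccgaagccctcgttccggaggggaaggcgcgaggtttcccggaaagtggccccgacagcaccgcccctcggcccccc

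The Dll4 window held 1 NF-kB match. The Selp window held 1 match to the loose AP-1 motif before the start, TGATTCA, and 1 ETS core 21 bases after it. The Icam1 window held no exact match to the 4 motifs. It holds TGGAAATTCC, which departs from the NF-kB consensus at its first base only. Over the 17 genes with a window, GGAAGT was found for 2 (Eng and Selp), AGATAA for 2 (Erg and Tal1), TGANTCA for 2 (Sele and Selp) and the NF-kB consensus for 2 (Dll4 and Tal1). Of all 27025 genes in the table, 26.5% had GGAAGT, 12.7% AGATAA, 8.97% TGANTCA and 9.55% the NF-kB consensus. The ETS core and the AP-1 motif do not overlap in the Selp window.

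Detection set how much could be said of each gene. Of the 35 genes, 19 were above the array's median of 5222 negative control features on all 11 fitted arrays, among them the endothelial markers Cdh5, Pecam1, Eng, Emcn and Cd34. Detection in bulk RNA does not show from which cells the signal came. Sele (E-selectin), Sox17 and Clec14a were under that median on all 11 arrays, and the other 13, with Ptprb, Erg, Sox18, Ecscr and Mmrn2 among them, were under it on some. The negative control median itself ran from 5.24 to 5.68 on the fitted arrays and was 5.96 on the array left out. The difference is given as a bound where all arrays of either side lay under that median.

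**Figure D1:**
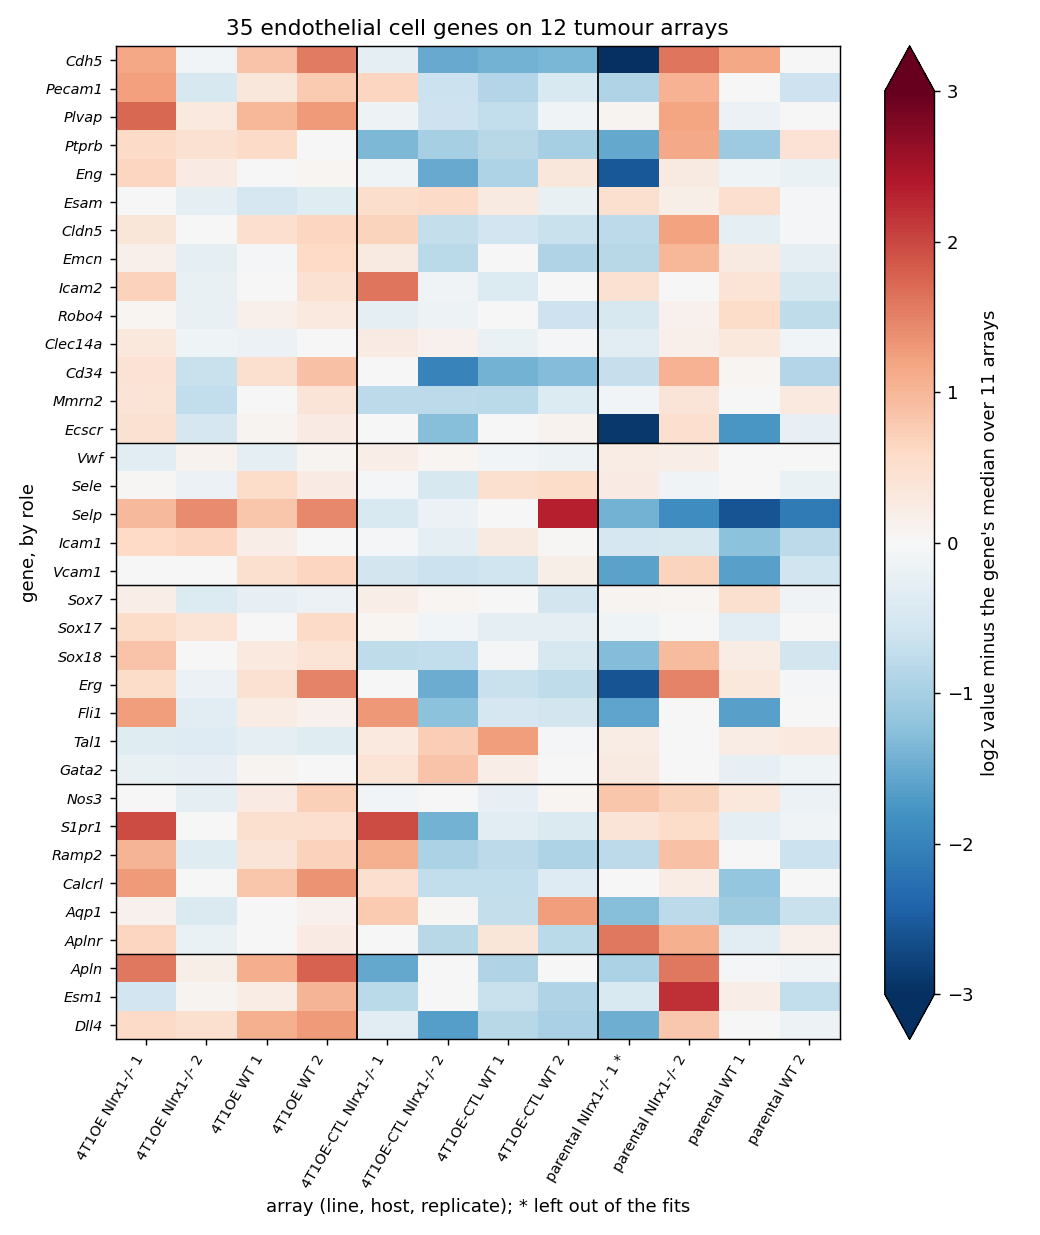
Log2 value of each of the 35 measured endothelial cell genes on every tumour array, as the deviation from that gene's median across 11 fitted arrays, with genes in rows grouped by role and arrays in columns grouped by line; the array left out is marked. Cdh5, Dll4, Apln and Plvap run from high on 4T1OE arrays to low on 4T1OE-CTL arrays, and Selp is low on every parental array.

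The first comparison asked how tumours overexpressing NLRX1 differed from tumours of the control line, averaged over both hosts. Cdh5, Plvap, Dll4 and Ptprb were higher in 4T1OE tumours: 4 of 35 genes passed an adjusted p of 0.05 (limma, Benjamini-Hochberg over all features), or 11.4%, against 4.73% of all features. None passed in the lower direction, where 1.04% of all features did, and 3.69% passed in the higher direction. The median difference over the 35 genes was 0.69 log2 units, 27 above 0 and 8 below, while the median over all 22206 features was -0.05. Without Nlrx1-/- 4T1OE-CTL replicate 2 the list's median was 0.42. At an unadjusted p under 0.05, 12 genes were higher and 3 lower, against 14.3% and 9.84% of all features.

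Of the 14 junction and surface genes, 3 rose and none fell, with a median difference of 0.71. Cdh5, the junction protein that defines endothelium, read 11.55, 10.31, 11.23 and 11.95 on 4T1OE arrays (Nlrx1-/- hosts first, then WT), against 10.09, 8.86, 8.97 and 9.01 on 4T1OE-CTL arrays. Every 4T1OE array was above every 4T1OE-CTL array, although Nlrx1-/- 4T1OE replicate 2 exceeded Nlrx1-/- 4T1OE-CTL replicate 1 by little. The means were 11.26 ± 0.70 and 9.23 ± 0.57 (SD, n = 4 each), a difference of 2.03 (SE 0.42, adjusted p = 0.0257 by limma), or 4.08-fold. Plvap, which forms the diaphragms of fenestrated capillaries and is abundant in tumour vessels, read 9.72, 8.29, 8.98 and 9.27 on 4T1OE arrays, against 7.83, 7.36, 7.25 and 7.89 on 4T1OE-CTL arrays. The groups did not overlap. The difference was 1.48 (SE 0.34, adjusted p = 0.0354 by limma), or 2.79-fold.

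Ptprb, the endothelial phosphatase VE-PTP that dephosphorylates VE-cadherin and Tie2, read 6.39, 6.28, 6.40 and 5.82 on 4T1OE arrays, against 4.48, 4.83, 5.00 and 4.82 on 4T1OE-CTL arrays. All 4 of the 4T1OE-CTL arrays were under the negative control median, so its rise was at least 0.73 log2 units. The adjusted p of 0.0464 by limma belongs to the plain fitted difference, and the bound itself was not tested. Cd34, a sialomucin of small vessels and blood progenitors, read 10.08, 8.98, 10.13 and 10.54 on 4T1OE arrays and 9.66, 7.65, 8.24 and 8.35 on 4T1OE-CTL arrays. Its difference of 1.46 (SE 0.49) did not pass (adjusted p = 0.105 by limma), and Nlrx1-/- 4T1OE-CTL replicate 1 lay within the range of the 4T1OE arrays. Pecam1, the platelet and endothelial adhesion molecule, differed by 0.79, Eng (endoglin, a co-receptor for TGF-beta family ligands) by 0.79, Mmrn2 by 0.71 and Cldn5 (claudin 5, a tight junction protein) by 0.70, and none of these passed. Emcn, Robo4, Ecscr and Icam2 differed by -0.04 to 0.47, also without passing. Esam, an adhesion molecule of endothelial tight junctions and platelets, ran the other way. It read 7.17, 6.91, 6.67 and 6.82 on 4T1OE arrays, against 7.71, 7.73, 7.45 and 6.95 on 4T1OE-CTL arrays, a difference of -0.57 (SE 0.20, adjusted p = 0.122 by limma) with 1 4T1OE array inside the range of the others.

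**Figure D2:**
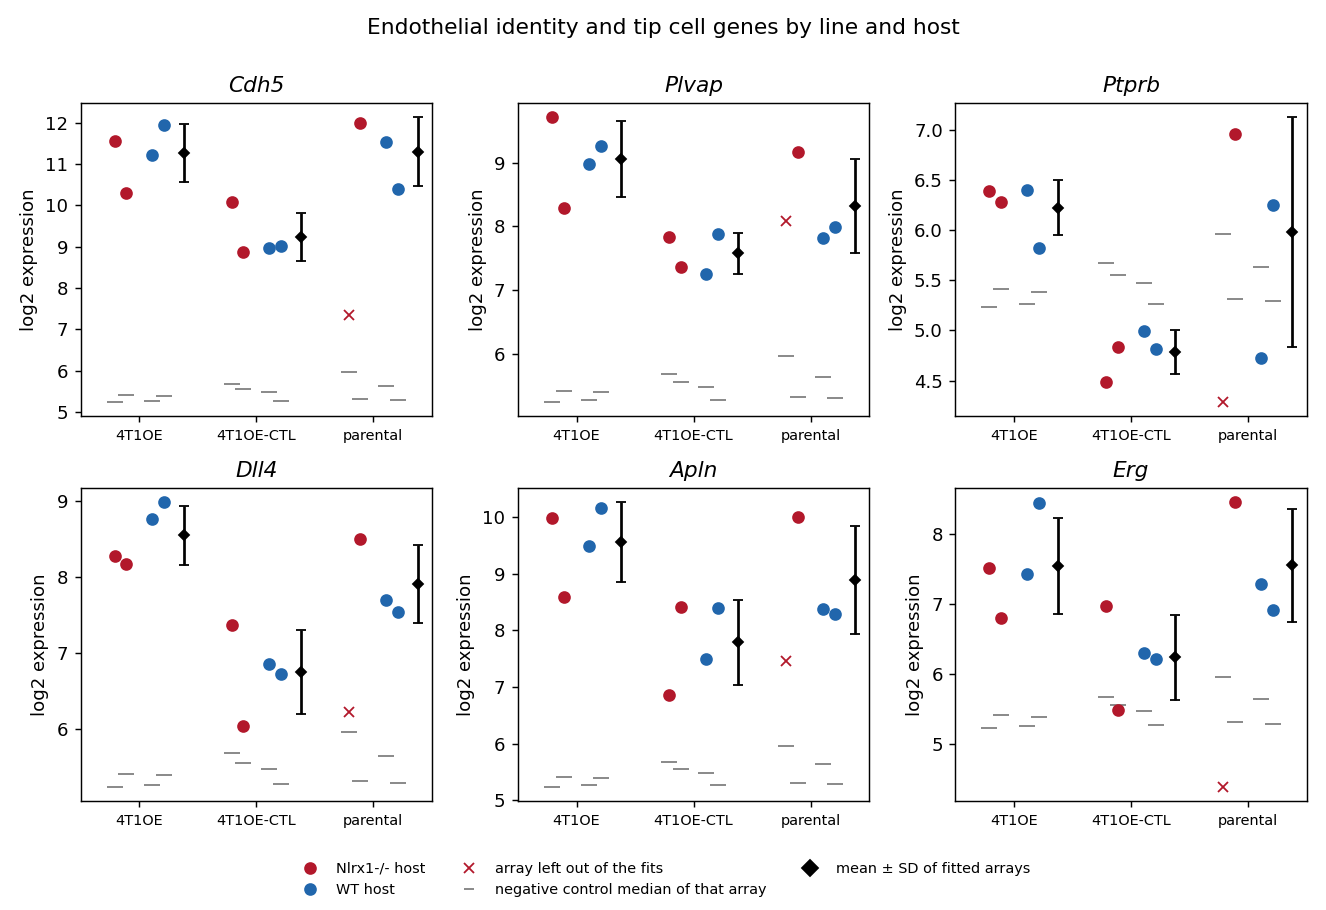
Log2 values of 6 vessel genes on each array, by line (4T1OE, 4T1OE-CTL, parental) and host, with points for arrays, a cross for the array left out, grey ticks for each array's negative control median, and bars for the mean and SD of the fitted arrays. For Cdh5, Plvap, Ptprb and Dll4 the 4 4T1OE arrays lie above all 4 4T1OE-CTL arrays, and at least 1 fitted parental array lies within or above the 4T1OE range.

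Among the secreted and tip cell genes, Dll4 rose and Apln just missed the threshold. Dll4, the Notch ligand of tip cells, read 8.27, 8.17, 8.77 and 8.98 on 4T1OE arrays, against 7.37, 6.04, 6.85 and 6.73 on 4T1OE-CTL arrays. The groups were separated by most of a log2 unit at their nearest points. The means were 8.55 ± 0.39 and 6.75 ± 0.55 (SD, n = 4 each), a difference of 1.80 (SE 0.32, adjusted p = 0.0157 by limma), or 3.48-fold. Apln read 9.98, 8.58, 9.49 and 10.16 on 4T1OE arrays, against 6.86, 8.40, 7.49 and 8.40 on 4T1OE-CTL arrays. Those groups did not overlap either, and the difference of 1.76 (SE 0.48) had an adjusted p of 0.0584 by limma. Esm1 differed by 0.78 (SE 0.52) with overlapping groups.

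No transcription factor passed, 7 measured, with a median of 0.53. Erg differed by 1.31 (SE 0.43, adjusted p = 0.0972 by limma), Sox18 by at least 0.32 and Fli1 by 0.56. Tal1, a basic helix-loop-helix factor of blood and endothelial progenitors, read 5.78, 5.75, 5.87 and 5.78 on 4T1OE arrays, against 6.42, 6.88, 7.40 and 6.10 on 4T1OE-CTL arrays. Every 4T1OE array was below every 4T1OE-CTL array, and the difference of -0.91 (SE 0.25) had an adjusted p of 0.0620 by limma. Gata2 read 5.18, 5.17, 5.50 and 5.44 on 4T1OE arrays, against 5.83, 6.28, 5.62 and 5.40 on 4T1OE-CTL arrays, a difference of -0.46 (SE 0.21) with 1 4T1OE-CTL array among the 4T1OE arrays. Sox7 differed by -0.08, and Sox17 was under the negative control median on every array. Mast cells also express Gata2 and Tal1, and 7 of 8 mast cell genes were lower in 4T1OE tumours with a median of -0.60, none passing. Their part in these values was not tested.

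Of the 6 receptors, enzymes and channels, none passed. Calcrl, the receptor that with Ramp2 forms the adrenomedullin receptor, differed by 1.20 (SE 0.39, adjusted p = 0.0995 by limma) and Ramp2 by 0.83 (SE 0.45). The sphingosine 1-phosphate receptor S1pr1 differed by 0.80 (SE 0.59) and the apelin receptor Aplnr by 0.50 (SE 0.35), while Nos3, the endothelial nitric oxide synthase, was under the negative control median on every 4T1OE-CTL array. Aqp1, a water channel of capillary endothelium, differed by -0.38. Of the 5 adhesion and activation genes none passed, with differences between -0.11 for Vwf and 0.73 for Selp. Across the list, 6 genes had all 4T1OE arrays above all 4T1OE-CTL arrays and 1 had all below, against 9.39% and 7.13% of all features.

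Genes of the same pathways that are not members gave a mixed picture. Of all features, 3.69% passed as higher in this comparison, the share beside which the counts of rises below stand. Of 38 vascular genes outside the list, 1 rose, or 2.63%, which is under that share. It was Flt1, a VEGF receptor, by 1.76 (SE 0.29, adjusted p = 0.0134 by limma), while the median was 0.22. Of 9 further tip cell and angiogenic genes, 2 rose, the basement membrane gene Nid2 by 1.75 and the carboxypeptidase inhibitor Lxn by 1.15 (adjusted p = 0.0248 and 0.0134 by limma), and all 9 differences were above 0 with a median of 0.65. Pericytes sit on capillaries outside the endothelium, and 2 of 12 pericyte and smooth muscle genes rose, Rgs5 by 1.96 and Abcc9 by 1.07 (adjusted p = 0.0237 and 0.0438 by limma). No gene passed among 7 of lymphatic endothelium or 5 of high endothelial venules, whose medians were -0.30 and -0.29. Ccl21a and Glycam1, of these lists, were high on replicate 1 from Nlrx1-/- hosts in both lines, as given above.

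Macrophage genes also differed between these lines. Of 14 measured, 7 rose in 4T1OE tumours and none fell, against 3.69% and 1.04% of all features. The 7 were Cx3cr1 by 3.33, Folr2 by 3.14, Csf1r by 2.32, Mrc1 by 2.19, Cd163 by 2.00, C1qb by 1.98 and Mertk by 1.10. The list's median deviation was between 0.38 and 0.82 on 4T1OE arrays and between -1.93 and -0.11 on 4T1OE-CTL arrays. That of the endothelial list was between -0.17 and 0.54 on 4T1OE arrays and between -0.63 and 0.00 on 4T1OE-CTL arrays. The lists parted on single arrays: Nlrx1-/- 4T1OE replicate 2 was at 0.45 for the macrophage list and -0.17 for the endothelial list, and Nlrx1-/- 4T1OE-CTL replicate 1 at -0.69 and 0.00. The part of macrophages in the endothelial result was not tested. No gene passed among those of platelets (median -0.14), fibroblasts (-0.29), adipocytes (0.28), skeletal muscle (-0.68), epithelium (0.45) or general leukocytes (0.00). Skeletal muscle genes differed widely between single arrays of a line. Their median deviation ran from -0.63 to 5.13 on 4T1OE arrays, highest on WT 4T1OE replicate 1. On 4T1OE-CTL arrays it ran from 0.00 to 3.68, highest on Nlrx1-/- 4T1OE-CTL replicate 2. The part of muscle in the endothelial result was not tested.

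**Figure D3:**
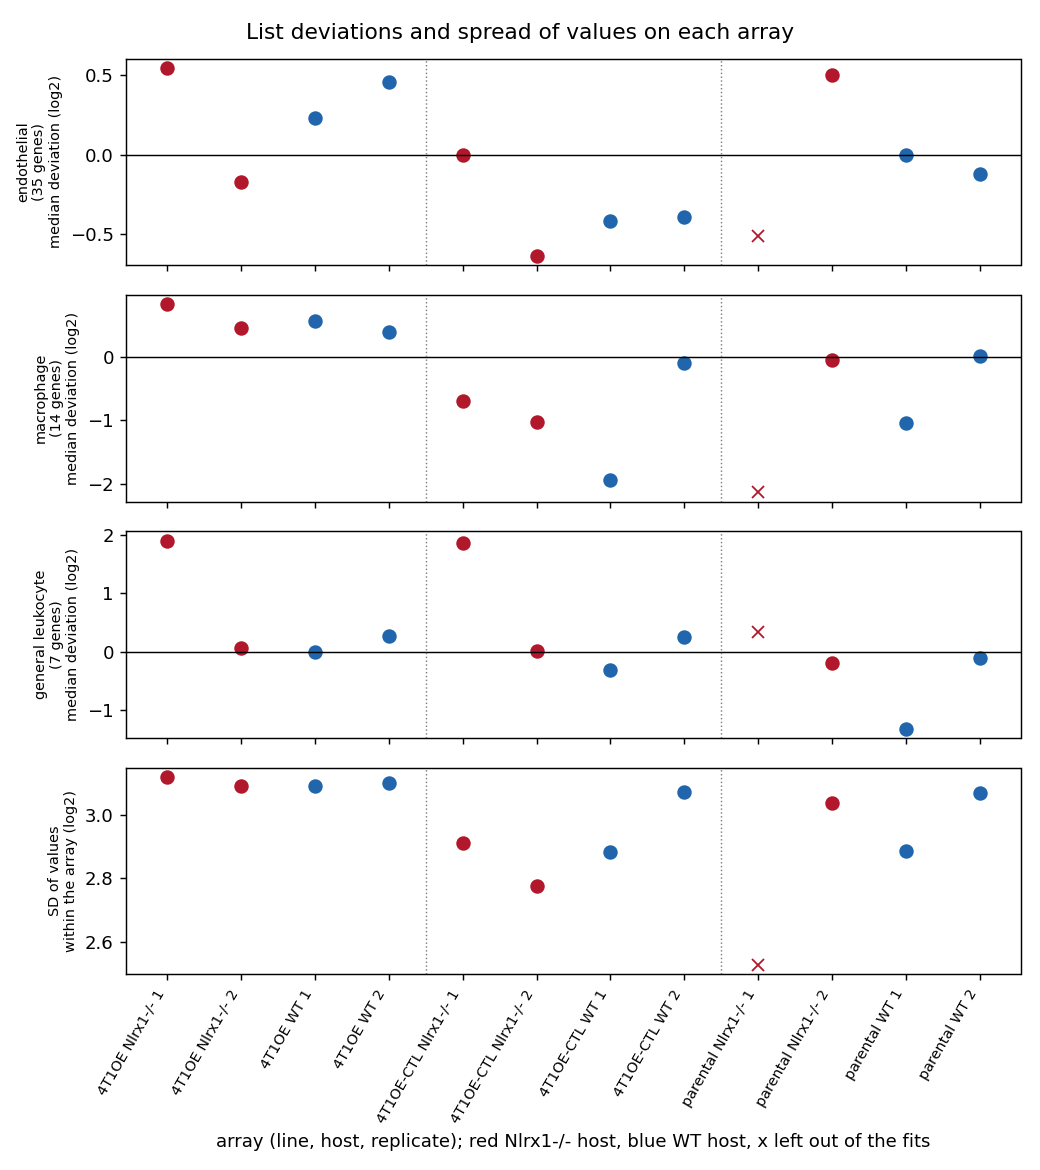
Median deviation of each gene list on each array, in log2 units from each gene's own median across 11 fitted arrays, by line, for the endothelial, macrophage and general leukocyte lists, with the standard deviation of all values of each array in the lowest panel and a cross for the array left out. The macrophage list lies between 0.38 and 0.82 on 4T1OE arrays and between -1.93 and -0.11 on 4T1OE-CTL arrays, and the endothelial list lies above all 4 4T1OE-CTL arrays on 3 of the 4 4T1OE arrays.

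The calls between 4T1OE and 4T1OE-CTL tumours depended on the arrays used. With all 12 arrays or with a covariate for the array standard deviation 0 of 35 passed, against 0.113% and 0.018% of all features. Only Dll4 passed after quantile normalization or without the 2 arrays high in leukocyte genes, against 2.6% and 0.27% of all features. In the fit of 11 arrays that share was 4.73%. With all 12 arrays the fitted differences were the same to 2 decimals. With the covariate they were 2.06 for Cdh5, 1.48 for Dll4, 0.87 for Plvap and 0.75 for Ptprb (1.44 in the fit of 11 arrays). Leaving out the arrays with a standard deviation under 3 left 1 4T1OE-CTL array, so only sizes are given. The differences were then 2.21, 1.88, 1.02 and 1.21 in that order. Leaving out 1 array moved the count to 0 without Nlrx1-/- 4T1OE replicate 1 or WT 4T1OE replicate 2, to 1 without WT 4T1OE replicate 1, WT 4T1OE-CTL replicate 1 or Nlrx1-/- 4T1OE-CTL replicate 2, to 2 without Nlrx1-/- 4T1OE-CTL replicate 1 or WT parental replicate 2, and to 9 without WT 4T1OE-CTL replicate 2. The share of all features moved as well. It was 0.315% and 0.392% in the runs with 0, and 1.01% to 1.44% in those with 1. With 2 genes it was 2.72% and 3.19%, and with 9 it was 12%.

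The 4T1OE-CTL tumours were next set against parental tumours, which shows how the control line differed from the line it was made from. The same 4 4T1OE-CTL arrays serve as the control side of the comparison above, so the 2 sets of differences are not independent. Cdh5 fell and Selp rose in 4T1OE-CTL tumours, 2 of 35 genes, against 2.59% of all features, 0.968% higher and 1.62% lower. The median over the list was -0.25, with 11 differences above 0 and 24 below, against a median of 0.02 over all features. It was -0.56 without WT parental replicate 2 and -0.16 without Nlrx1-/- parental replicate 2. Of the genes whose groups did not overlap, 2 lay above and 3 below, against 4.88% and 6.42% of all features.

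Cdh5 had the 4T1OE-CTL values given above, against 11.99 in the Nlrx1-/- parental tumour and 11.54 and 10.38 in WT parental tumours, and 7.35 on the array left out. All 4 of the 4T1OE-CTL arrays were below all 3 fitted parental arrays, and the array left out was below them all. The means were 9.23 ± 0.57 (n = 4) and 11.30 ± 0.83 (n = 3), a fitted difference of -2.10 (SE 0.46, adjusted p = 0.0349 by limma). Selp, the P-selectin that inflamed endothelium and platelets bring from storage granules to their surface, read 5.88, 6.17, 6.34 and 8.66 on 4T1OE-CTL arrays, against 4.48, 3.74 and 4.20 on fitted parental arrays and 4.92 on the array left out. Every parental array was under its negative control median, and WT 4T1OE-CTL replicate 2 stood more than 2 log2 units above the other 4T1OE-CTL arrays. The rise was at least 1.35 log2 units, and at least 0.72 without that array. The adjusted p, 0.0213 and 0.00605 by limma, belong to the plain fitted differences and not to these bounds.

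The genes next in size did not pass. Erg read 6.97, 5.49, 6.30 and 6.21 on 4T1OE-CTL arrays, against 8.46, 7.29 and 6.91 on parental arrays, a difference of -1.32 (SE 0.47, adjusted p = 0.180 by limma). Cd34 was 10.69 in the Nlrx1-/- parental tumour and 9.71 and 8.78 in WT parental tumours, and its difference was -1.28 (SE 0.54, adjusted p = 0.266 by limma). Without the Nlrx1-/- parental array the Erg and Cd34 differences were both -0.66. Dll4 differed by -1.15 (SE 0.35) and Apln by -1.11 (SE 0.53). Aqp1 ran the other way, with 11.12, 10.37, 9.62 and 11.59 on 4T1OE-CTL arrays against 9.55, 9.27 and 9.67 on parental arrays, a difference of 1.18 (SE 0.39, adjusted p = 0.152 by limma). For Aqp1, WT 4T1OE-CTL replicate 1 lay below the highest parental array. Icam1 read 7.63, 7.43, 7.96 and 7.72 on 4T1OE-CTL arrays, against 7.20, 6.45 and 6.91 on parental arrays, a difference of 0.80 (SE 0.24) that did not pass.

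Of all features, 1.62% passed as lower in this comparison, the share beside which the counts of falls below stand. Vascular genes outside the list fell in 4T1OE-CTL tumours for 2 of 38, Adgrl4 (-2.17) and the ephrin receptor Ephb4 (-1.85). Tip cell and angiogenic genes fell for 3 of 9, Unc5b (-1.32), Lxn (-1.03) and Kcne3. For Kcne3 every 4T1OE-CTL array was under the negative control median, and its fall was only bounded at 0.045 log2 units or more. Pericyte and smooth muscle genes fell for 2 of 12, Rgs5 (-2.14) and Acta2 (-1.82). Epithelial genes fell for 6 of 8, with a median of -3.11: Epcam (-5.84), Cldn4 (-5.83), Esrp1 (-3.26), Cdh1 (-2.97), Grhl2 (-2.79) and Cldn7, lower by at least 2.94. Of 9 fibroblast genes 1 fell, the collagen-binding proteoglycan Lum (-3.62, adjusted p = 0.00114 by limma), with a median of -0.15. Skeletal muscle genes had a median of 2.53 with none of 8 passing, mast cell genes a median of 1.13 with none of 8 passing, and general leukocyte genes a median of 1.03 with none of 7 passing. Macrophage, platelet, adipocyte, lymphatic and venule genes had none passing either, with medians between -0.50 and 0.36. The part of these other cells in the endothelial differences was not tested. With all 12 arrays 0 of 35 genes passed, Cdh5 at -1.08 (adjusted p = 0.716 by limma), and leaving out the Nlrx1-/- parental replicate 2 array also left 0, Cdh5 at -1.69 (adjusted p = 0.272). Of all features, 0.707% and 0.567% passed in these runs. The count was 1 without WT parental replicate 2, WT 4T1OE replicate 1, Nlrx1-/- 4T1OE replicate 1, WT 4T1OE-CTL replicate 2 or Nlrx1-/- 4T1OE-CTL replicate 2, where 1.32% to 3.41% of all features passed. Cdh5 kept its call only where the array left out was WT parental replicate 2, WT 4T1OE replicate 2, Nlrx1-/- 4T1OE replicate 2 or Nlrx1-/- 4T1OE-CTL replicate 1, and Selp lost its call without WT parental replicate 2 or Nlrx1-/- parental replicate 2 (adjusted p = 0.0736 and 0.0600 by limma). Cdh5 also lost its call after quantile normalization, with array weights and with a covariate for the array standard deviation (adjusted p = 0.0510, 0.113 and 0.0551 by limma). Its differences there were -1.94, -1.79 and -2.12. Without arrays of a standard deviation under 3, which left 1 4T1OE-CTL array, the Cdh5 difference was -2.13.

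The 4T1OE tumours were then set directly against parental tumours. Here 2 of 35 genes rose, both leukocyte adhesion molecules, and none fell, against 1.33% of all features, 0.887% higher and 0.441% lower. The median over the list was 0.18, with 23 above 0 and 12 below, against -0.03 over all features. It rested on single parental arrays, being -0.00371 without WT parental replicate 2 and 0.58 without Nlrx1-/- parental replicate 2. Cdh5, which differed between 4T1OE and 4T1OE-CTL tumours, differed by -0.07 (SE 0.46) here, Plvap by 0.69 (SE 0.37) and Dll4 by 0.65 (SE 0.35). On the fitted parental arrays, the Nlrx1-/- one first, Plvap read 9.18, 7.81 and 7.99. Dll4 read 8.50, 7.69 and 7.53 there, and Ptprb 6.96, 4.73 and 6.25. For each of these genes the Nlrx1-/- array was the highest of the 3. All 4T1OE arrays lay above all fitted parental arrays for 4 genes and below for 1, against 9.96% and 7.87% of all features.

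Selp read 7.30, 7.75, 7.16 and 7.77 on 4T1OE arrays, against the parental values of 4.48, 3.74 and 4.20 given above. The 4T1OE arrays lay within a log2 unit of each other and far above every parental array. The means were 7.49 ± 0.31 (n = 4) and 4.14 ± 0.37 (n = 3), and the rise was at least 2.08 log2 units. The adjusted p of 0.0122 by limma belongs to the plain fitted difference and not to this bound. Icam1, the ligand of leukocyte integrins, read 8.29, 8.33, 7.88 and 7.69 on 4T1OE arrays, against 7.20, 6.45 and 6.91 on fitted parental arrays and 7.18 on the array left out. Again no array overlapped. The difference was 1.16 (SE 0.24, adjusted p = 0.0410 by limma), or 2.24-fold.

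**Figure D4:**
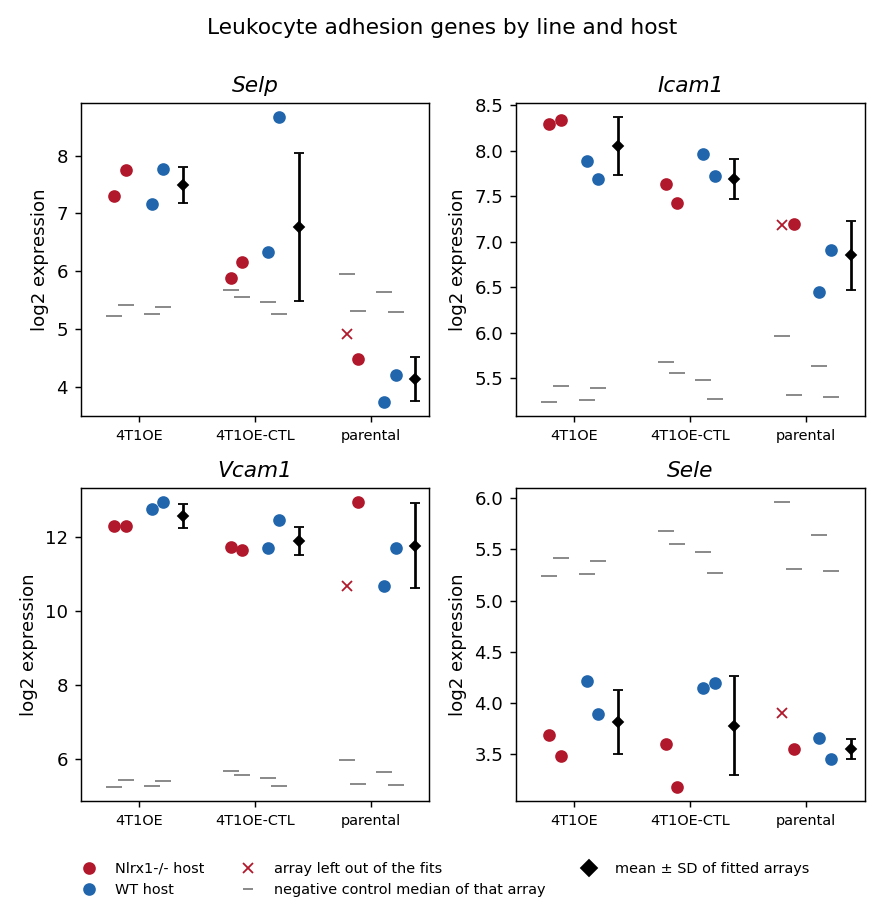
Log2 values of leukocyte adhesion genes on each array, by line (4T1OE, 4T1OE-CTL, parental) and host, with a cross for the array left out, grey ticks for each array's negative control median, and the mean and SD of the fitted arrays. Selp lies between 7.16 and 7.77 on 4T1OE arrays and between 3.74 and 4.48 on fitted parental arrays, with 4T1OE-CTL arrays between 5.88 and 8.66.

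The other adhesion genes did not pass. Vcam1, the ligand of integrin alpha 4, read 12.31, 12.29, 12.78 and 12.95 on 4T1OE arrays, against 12.95, 10.67 and 11.71 on parental arrays, a difference of 0.79 (SE 0.44) with overlapping groups. Vwf, the platelet-binding clotting factor stored with P-selectin, differed by -0.19 (SE 0.19), and Sele was under the negative control median on every array. The 6 platelet and megakaryocyte genes, from cells that also make P-selectin, had a median of -0.09 in this comparison with none passing, and their median deviation was between -0.37 and 0.18 on 4T1OE arrays and between 0.08 and 0.31 on fitted parental arrays. General leukocyte genes had a median of 1.03 with none of 7 passing, macrophage genes a median of 0.88 with none of 14 passing, and skeletal muscle genes a median of 1.61 with none of 8 passing. Of all features, 0.441% passed as lower in this comparison. Epithelial genes fell for 5 of 8, with a median of -2.57: Cldn4 (-6.78), Epcam (-5.56), Esrp1 (-2.96), Grhl2 (-2.18) and Cldn7, lower by at least 3.11. Fibroblast genes fell for 3 of 9, with a median of -0.83: Lum (-2.65), Col1a2 (-2.35) and Col1a1 (-2.23), the last 2 being chains of type I collagen (adjusted p = 0.0110, 0.0237 and 0.0138 by limma). The part of these cells in the Selp and Icam1 differences was not tested.

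Calcrl was the highest of the genes that did not pass, with 8.95, 7.68, 8.50 and 9.03 on 4T1OE arrays against 7.90, 6.53 and 7.66 on parental arrays, a difference of 1.14 (SE 0.43, adjusted p = 0.250 by limma). The lowest were Esam (-0.54, SE 0.22), Tal1 (-0.49, SE 0.28) and Esm1 (-0.44, SE 0.56). Esm1 read 5.73, 6.40, 6.53 and 7.33 on 4T1OE arrays, against 8.51 in the Nlrx1-/- parental tumour and 6.52 and 5.57 in WT parental tumours, so its sign rested on 1 array, and the difference was 0.58 without it. Esam read 7.36, 7.67 and 7.12 on the fitted parental arrays, the Nlrx1-/- one first, and overlapped the 4T1OE arrays. Tal1 read 6.14, 6.36 and 6.42 there, above every 4T1OE array. Selp passed in every alternative run. Icam1 lost its call without any 1 of the 4 4T1OE arrays or the 3 parental arrays, with adjusted p up to 0.121 by limma.

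**Figure D5:**
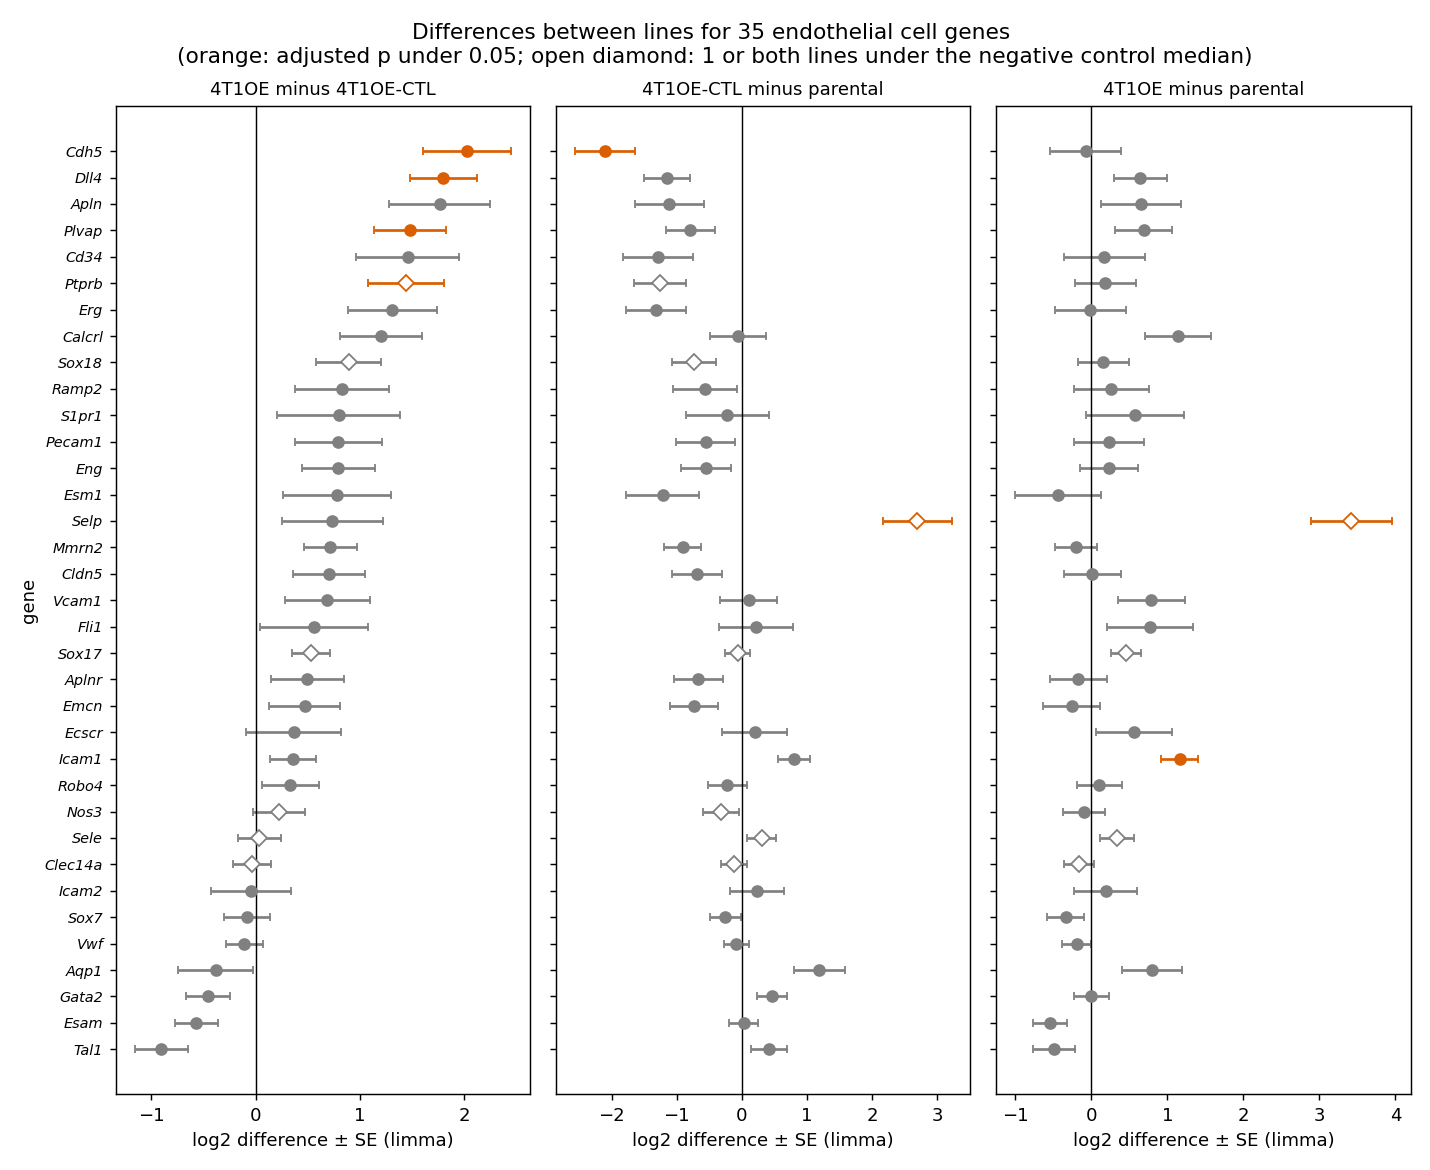
Fitted log2 differences with their standard errors for the 35 measured genes in 4T1OE minus 4T1OE-CTL, 4T1OE-CTL minus parental and 4T1OE minus parental tumours, from limma on 11 arrays; orange marks an adjusted p under 0.05 and open diamonds genes with 1 or both lines under the negative control median, for which the plotted value is not the bound given in the text. Cdh5 is at 2.03, -2.10 and -0.07 in the 3 panels, and Selp is the only gene called in both comparisons with parental tumours.

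The host comparison, averaged over lines, asked whether endothelial genes differed between tumours grown in Nlrx1-/- and WT mice. No endothelial gene and no feature of the 22206 passed (limma, 0% of all features), while 955 features and 1 endothelial gene, lower in Nlrx1-/- hosts as were 2.68% of all features, had an unadjusted p under 0.05. The median over the list was 0.18, with 27 above 0 and 8 below, against 0.00 over all features, and was -0.0456 without Nlrx1-/- parental replicate 2. The gene with an unadjusted p under 0.05 was Sele, which read 3.68, 3.48, 3.60, 3.18 and 3.55 in Nlrx1-/- hosts, against 4.21, 3.89, 4.14, 4.20, 3.65 and 3.45 in WT hosts. All of these are under the negative control median, so no size is given.

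The 3 highest and 3 lowest genes illustrate the spread. S1pr1 read 8.06, 6.10, 8.06, 4.68 and 6.65 in Nlrx1-/- hosts, against 6.58, 6.61, 5.77, 5.67, 5.84 and 6.00 in WT hosts (4T1OE arrays, then 4T1OE-CTL, then parental). Its difference was 0.61 (SE 0.51), with both the highest and the lowest array in Nlrx1-/- hosts. Ramp2 read 6.05, 4.66, 6.10, 4.07 and 5.90 in Nlrx1-/- hosts, against 5.43, 5.72, 4.26, 4.12, 5.03 and 4.39 in WT hosts, a difference of 0.55 (SE 0.39). Here too the Nlrx1-/- arrays spanned the WT arrays. Pecam1 read 10.45, 8.74, 9.88, 8.60 and 10.27 in Nlrx1-/- hosts, against 9.57, 10.01, 8.36, 8.77, 9.23 and 8.61 in WT hosts, a difference of 0.52 (SE 0.36). At the other end were Selp at -0.40 (SE 0.42) and Mmrn2, an extracellular matrix glycoprotein of vessels, at -0.14 (SE 0.22).

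Mmrn2 read 6.12, 4.96, 4.91, 4.93 and 6.09 in Nlrx1-/- hosts, against 5.70, 6.09, 4.89, 5.30, 5.72 and 6.01 in WT hosts, with the lowest values on 4T1OE-CTL arrays and on Nlrx1-/- 4T1OE replicate 2. The 2 arrays high in general leukocyte genes, Nlrx1-/- 4T1OE replicate 1 and Nlrx1-/- 4T1OE-CTL replicate 1, were the 2 highest of 11 for Fli1, Icam2, Ramp2 and S1pr1. Fli1, an ETS factor of endothelium and blood cells, read 10.81 and 10.86 there and between 7.94 and 9.79 on the other fitted arrays. Without those 2 arrays the S1pr1 difference was -0.27 and the median over the list 0.00.

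Within WT hosts, 0 of 35 genes passed between 4T1OE and 4T1OE-CTL tumours, against 0.0135% of all features, with 10 genes higher and 1 lower at an unadjusted p under 0.05 (4.97% and 3.11% of all features) and a median of 0.62. Cdh5 differed by 2.60 (SE 0.55) and Dll4 by 2.09 (SE 0.39, adjusted p = 0.146 by limma), and both passed when the compared groups were fitted alone. Within Nlrx1-/- hosts, 0 of 35 passed, against 1.19% of all features, with 9 genes higher and 3 lower at an unadjusted p under 0.05 (13.2% and 7.59% of all features) and a median of 0.49. That median was 0.96 once Nlrx1-/- 4T1OE replicate 2 was dropped, and -0.0195 once replicate 2 of the Nlrx1-/- 4T1OE-CTL tumours was. There Dll4 differed by 1.51 (SE 0.39, adjusted p = 0.0793 by limma), Cdh5 by 1.45 (SE 0.55), Plvap by 1.41 (SE 0.44) and Ptprb by at least 0.72.

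Whether 4T1OE minus 4T1OE-CTL differed between hosts was tested itself, as an interaction (Nlrx1-/- minus WT). No endothelial gene and no feature passed (limma, 0% of all features, 726 features at an unadjusted p under 0.05), and the median over the list was -0.24, with 9 above 0 and 26 below, or between -0.63 and -0.0133 without Nlrx1-/- 4T1OE replicate 1 or 2. Its extremes were Selp at 1.53 (SE 0.87) and Esm1 at -1.24 (SE 0.62), and 1 gene, Gata2, had an unadjusted p under 0.05 in the lower direction, as did 1.12% of all features, with -0.84 (SE 0.37). For Selp, WT 4T1OE-CTL replicate 2 read 8.66 and the other 4T1OE-CTL arrays 5.88 to 6.34. The interaction was -1.15 (SE 0.78) for Cdh5 and -0.58 (SE 0.55) for Dll4.

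Host differences within a line were also without calls, 0% of all features in each line, with 2121 features at an unadjusted p under 0.05 in 4T1OE-CTL, 194 in 4T1OE and 1044 in parental tumours. In 4T1OE tumours the list's median was -0.19, with 14 genes above 0 and 21 below, and its sign rested on 1 array, with -0.52 without Nlrx1-/- 4T1OE replicate 1 and 0.18 without replicate 2. In 4T1OE-CTL tumours it was 0.14, with -0.16 without Nlrx1-/- 4T1OE-CTL replicate 1 and 0.31 without replicate 2, and Selp was lowest at -1.47 (SE 0.61) and Icam2 highest at 0.95 (SE 0.55). In parental tumours it was 0.81, with 31 of 35 above 0, and rested on 1 Nlrx1-/- array against 2 WT arrays. That array, Nlrx1-/- parental replicate 2, was the highest of all 12 for 10 of the 35 genes, and the array left out of the same group was the lowest for 10. With both arrays the median was 0.17. In parental tumours Esm1 differed by 2.47 (SE 0.54) and Vcam1 by 1.76 (SE 0.46), at 8.51 and 12.95 on the fitted Nlrx1-/- array, 6.52 and 10.67 on WT replicate 1, and 5.57 and 11.71 on WT replicate 2. On the array left out, Esm1 read 5.86 and Vcam1 10.68.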

How the data were processed

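Log2 expression values of 12 tumour arrays and 28846 features were used as deposited, 1 value per transcript cluster. The Transcriptome Analysis Console is named per the submitters' processing notes, and how it normalized the values is not given in the sources used here. A column of 1 manufacturer's control array held no values. Control features (6640) were removed and 22206 tested, of which 19572 had a gene symbol from the platform annotation, updated through gene IDs (RefSeq, GRCm38.p6). No arrays were identical. The number of arrays limits the precision.

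Differences came from limma 3.58.1 (R 4.3.3; two-sided moderated test from eBayes after lmFit, adjusted p under 0.05 over all features), tested on simulated data: a model of host plus line for the 4 averaged comparisons, and 1 mean per group for the other 6. A bound subtracts from the mean of the brighter arrays the mean of the dimmer ones, after raising each dim value to its array's negative control median. Bounds were not tested, and a call for such a gene rests on its plain fitted difference.

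The list of members and the other lists were chosen with earlier results of these data known. Values on the fitted arrays compared are given for genes that passed and for the 3 highest and 3 lowest differences in each averaged comparison, and other values by range or as differences; Vcam1 and Fli1 were added after their values were seen. Genes outside the list are named where they passed in an averaged comparison. Same-numbered replicates were not treated as pairs: deviations correlated over 0.1 in 2 of 10 pairs of groups (range -0.31 to 0.37). Both of those lay within a host, at 0.37 in Nlrx1-/- hosts and 0.36 in WT hosts, so the check cannot show that replicates were unpaired. Alternatives were all 12 arrays, quantile normalization, a dim filter, variance settings, array weights, the array standard deviation, the replicate block, another model, another threshold and leaving out each array; leaving out the 2 arrays high in leukocyte genes was added after seeing the data.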

Additional observations from a re-analysis of the deposited data

Results flagged for a closer look

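Of 70 tests for a lone high or low array among the 4 arrays of a line (35 genes, 4T1OE and 4T1OE-CTL; Dixon's test), 7 passed, all among 4T1OE-CTL arrays. Chance flags about 1 in 20 such groups. Nlrx1-/- 4T1OE-CTL replicate 1 was high for 3 genes: Cdh5 at 10.1, with the others between 8.86 and 9.01, Cldn5 at 7.29, with the others between 5.92 and 6.05, and Ramp2 at 6.10, with the others between 4.07 and 4.26. It is 1 of the 2 arrays high in general leukocyte genes. WT 4T1OE-CTL replicate 2 was high for another 3: Selp at 8.66, with the others between 5.88 and 6.34, Vcam1 at 12.5, with the others between 11.66 and 11.75, and Mmrn2 at 5.30, with the others between 4.89 and 4.93. It is the only 4T1OE-CTL array whose standard deviation of values, 3.07, was over 3. Nlrx1-/- 4T1OE-CTL replicate 2 was low for Ecscr, a surface protein of endothelial cells, at 5.69, with the others between 6.94 and 7.06. The part of leukocyte content or of the spread of values in these differences was not tested.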

How the results depend on the processing

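For 4T1OE minus 4T1OE-CTL, 4 genes passed as reported and 8 at an unadjusted p under 0.05 with a fold of 2, against 4.73% and 6.71% of all features. With all 12 arrays or with a covariate for the array standard deviation 0 passed (0.113% and 0.018% of all features). After quantile normalization 1 passed, and 1 without the 2 arrays high in leukocyte genes (2.6% and 0.27% of all features). For 4T1OE-CTL minus parental, 2 passed as reported and 7 at the unadjusted threshold, against 2.59% and 5.49% of all features. With all 12 arrays 0 passed (0.707% of all features), and after quantile normalization 1, Selp (3.17%). With array weights the 2 that passed were Ptprb and Selp, and with the covariate Aqp1 and Selp (2.99% and 2.63% of all features). For 4T1OE minus parental, 2 passed as reported and 1, Selp, after quantile normalization, with an intensity trend, with a covariate for the array standard deviation or without the 2 leukocyte arrays. Of all features, 1.07%, 1.34%, 0.68% and 0.441% passed in those runs in that order, against 1.33% as reported. At the unadjusted threshold 10 genes passed between 4T1OE and 4T1OE-CTL in WT hosts and 8 in Nlrx1-/- hosts, against 3.88% and 12% of all features. Between hosts 1 passed in 4T1OE-CTL tumours, against 4.09% of all features. These counts were all 0 as reported. The host comparison in parental tumours had 1 Nlrx1-/- array, so its count is not given. In WT hosts 2 passed with the compared groups alone, against 0.14% of all features. Leaving out 1 array gave 0 to 9 genes for 4T1OE minus 4T1OE-CTL, against 0.315% to 12% of all features. It gave 0 to 2 for 4T1OE-CTL minus parental (0.567% to 3.96% of all features) and 1 to 2 for 4T1OE minus parental (0.374% to 1.54%). Within a host, some of these runs left 1 array in a compared group, so no count is given. With the replicate block, 3 passed between 4T1OE and 4T1OE-CTL (Ptprb at adjusted p = 0.0522 by limma) and 1 between 4T1OE and parental (Icam1 at 0.0545), against 3.97% and 1.33% of all features. No other call changed with the block. The median for 4T1OE minus 4T1OE-CTL was 0.32 with a covariate for the array standard deviation, and that for 4T1OE minus parental was 0.56 with all 12 arrays. No gene passed between hosts over all lines, between hosts in 4T1OE tumours or in the interaction in any alternative run. The sign turned for Gata2 in 4T1OE minus 4T1OE-CTL (0.00121) and Selp between hosts (0.13) without arrays with a standard deviation under 3, for Selp between hosts without WT 4T1OE-CTL replicate 2 (0.083, range over arrays left out -0.71 to 0.083), for Mmrn2 between hosts without Nlrx1-/- 4T1OE replicate 2 (0.053, range -0.28 to 0.053), for S1pr1 between hosts without the 2 leukocyte arrays (-0.27) and for Esm1 in 4T1OE minus parental without Nlrx1-/- parental replicate 2 (0.58, range -1.02 to 0.58); the cause was not tested. Dropping arrays with a standard deviation under 3 left no Nlrx1-/- 4T1OE-CTL array, so comparisons needing one have no value there, nor does the host comparison in parental tumours without Nlrx1-/- parental replicate 2. Genes with every array of a side under the negative control median were given a bound or no size. Exceptions were the Ptprb differences of the alternative fits and the Gata2 interaction. For Gata2, both Nlrx1-/- 4T1OE arrays lay under that median. Genes under it on some arrays, such as Ramp2, Mmrn2 and Gata2, were given plain differences, whose size is less certain.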
